A study of Mus musculus with 35 samples.

Results

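The glycolysis enzymes described here carry glucose through to pyruvate and lactate. They were chosen by name: a probe set belonged to the group if the array's gene table gave it only the symbol Hk1, Hk2, Gpi1, Aldoa, Tpi1, Gapdh, Pgk1, Pgam1, Eno1 or Ldha. Of these 10 genes, 8 had such a probe set, and together they had 15 of the 12428 probe sets analysed. Gpi1 and Eno1 had none under their own name. Each of Hk1, Tpi1, Pgk1, Pgam1 and Ldha had 1 probe set, Hk2 and Aldoa had 2 each, and Gapdh had 6, which are the array's own control probe sets for the 3′ end, the middle and the 5′ end of the transcript, each in both strand orientations. A further 2 probe sets that the table assigns to Gapdh together with its pseudogenes were not counted.

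All cells came from the bone marrow of C57Bl/6 mice carrying CD45.1 and aged 7 to 9 weeks. Each sorting experiment used the marrow of a single mouse. The labels give the sex as male except for the USP samples, for which they state none. The side population (SP) is recognised by its efflux of the dye Hoechst and is enriched for blood stem cells, and the SP cells taken carried Sca-1 but lacked Gr-1. LSP cells came from the bottom portion of the SP tail and USP cells from its top portion. CD8 cells, sorted as CD3 and CD8 positive, are cytotoxic T lymphocytes and served as the differentiated comparison. LSP, USP and CD8 cells were each measured in 3 samples. For every sample 10 cells were amplified at a time, 4 such products were combined, and the mix was hybridised to 2 arrays. Besides these, 12 single SP cells from the tip of the SP region were set against 5 single cell equivalents (SCE), aliquots drawn from 1 lysate of many SP cells. The SCE are technical repeats, so their spread holds the error of dividing the lysate, of amplification and of the array. The spread of single cells holds the error of amplification and array plus whatever differed between cells.

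Glycolysis splits a glucose molecule into a pair of pyruvate molecules with a small net gain of ATP and without using oxygen. Hexokinase traps glucose in the cell, aldolase cuts the phosphorylated sugar into a pair of triose phosphates, triose phosphate isomerase makes both usable, and the enzymes from glyceraldehyde-3-phosphate dehydrogenase onward recover energy. Lactate dehydrogenase reduces pyruvate to lactate and so renews the NAD+ that the pathway needs. Long-lived blood stem cells are known for leaning on glycolysis in their low-oxygen niche, where the factor HIF-1 raises many of these genes, and T cells raise glycolysis when they are activated.

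All levels below are log2 of the deposited intensity. On the ten-cell arrays, values under a log2 level of 7 were set to 7, called the floor, and the 2 arrays of a sample were averaged. On the single-cell and SCE arrays a probe set was called detected from a log2 level of 9 upwards. The sorted populations carried their own markers. Of 12 probe sets for CD8 T cell markers, 10 were at the floor in all LSP samples and 12 in all USP samples, against 2 in CD8 samples, and Cd8b1, Cd3d, Il7r, Zap70, Cd3g and Cd3e were lower in SP cells. A further Zap70 probe set, with a difference of -0.94, did not pass the test described below. Of 10 probe sets for stem cell markers, 6 passed the test described below as higher in SP cells and 0 as lower. These were 1 each for Tie1, Lmo2, Meis1, Myb, Procr and Tal1. The other probe sets of Tie1, Lmo2 and Myb, and that of Abcg2, did not pass. Other lineages were not wholly absent: S100a8, a granulocyte gene, was higher in SP cells, and Ighm, a B cell gene, was lower in SP than in CD8 samples. Actb, a housekeeping gene that marks no lineage, was lower in SP cells with 1 probe set, while another did not pass the test described below. In single cells the red cell gene Hba-a1 was lower than in SCE. Summed over the 10 granulocyte probe sets, the linear level was 753 to 3454 in LSP and 2635 to 15474 in USP samples, against 0 to 452 in CD8 samples. The share of these cell types in the glycolytic differences was not tested. The labels do not say that the samples of a group came from different mice, so p-values measure only the spread between these samples. In pools of cells, fewer cells with a transcript and less of it per cell cannot be told apart.

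The deposited arrays were of different kinds, which touches every comparison with CD8. Of the 18 ten-cell arrays, 9 held negative values, all of them SP arrays, while array 2 of LSP sample B, both arrays of USP sample Z and all 6 CD8 arrays held positive values alone. The main results are therefore also given on the positive arrays alone. These leave 1 LSP, 1 USP and 3 CD8 samples, so that the error of that fit comes from the CD8 samples and its p-values hold no spread between SP samples. For the 15 glycolytic probe sets the 2 arrays of a sample differed by a median of 0.13 on the log2 scale and by at most 0.78, for Aldoa in LSP sample A.

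The promoters of the enzymes that carry the results below are shown here because HIF-1, known to raise many glycolytic genes, binds a short core of the letters ACGTG or GCGTG. The first form was sought on both strands in the 250 bases before each start listed by RefSeq (GRCm38.p6), and its matches are in capitals. The first is the first of 2 windows of Hk1 (chr10:62379909-62380158, minus strand), higher in SP cells. The second is Tpi1 (chr6:124814159-124814408, minus strand), also higher in SP cells. The third is the first of 2 windows of Ldha (chr7:46845554-46845803, plus strand), whose spread between single cells did not pass the test after adjustment.
Hk1: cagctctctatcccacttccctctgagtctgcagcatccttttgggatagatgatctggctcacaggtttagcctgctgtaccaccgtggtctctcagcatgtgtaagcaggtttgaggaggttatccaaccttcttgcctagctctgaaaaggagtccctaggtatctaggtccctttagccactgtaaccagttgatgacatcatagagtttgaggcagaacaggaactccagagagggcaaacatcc
Tpi1: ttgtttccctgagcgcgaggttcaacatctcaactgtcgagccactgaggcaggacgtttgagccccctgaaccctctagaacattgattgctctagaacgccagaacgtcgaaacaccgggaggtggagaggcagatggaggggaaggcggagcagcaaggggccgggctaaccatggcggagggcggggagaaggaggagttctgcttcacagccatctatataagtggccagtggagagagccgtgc
Ldha: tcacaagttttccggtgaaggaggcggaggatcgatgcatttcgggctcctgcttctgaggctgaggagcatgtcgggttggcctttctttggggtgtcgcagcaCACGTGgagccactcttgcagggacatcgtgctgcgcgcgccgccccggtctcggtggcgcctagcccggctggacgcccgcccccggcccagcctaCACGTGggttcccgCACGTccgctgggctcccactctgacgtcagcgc
The Ldha window held ACGTG at 3 places, of which 2 read it on both strands through overlapping letters. The windows printed for Hk1 and Tpi1 held neither form. The second Hk1 window held GCGTG 3 times and the second Ldha window once. Of the 16 windows of the 10 enzymes 6 held ACGTG (37.5%), belonging to Hk2, Aldoa, Pgk1, Pgam1 and Ldha, against 16.6% of all 32851 windows. With either form it was 12 of the 16 (75.0%), against 38.6% of all windows. The 2 Aldoa windows with a match overlap each other, as do 2 of the Eno1 windows. A match of these letters is no proof of binding, and its absence from a window says nothing of the factor.

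SP cells differed from CD8 T cells at 2 glycolytic steps. Hk1 and Tpi1 were higher in SP cells, by 6.13-fold and 4.16-fold, and no glycolytic probe set was called lower. The test was limma over all probe sets above the floor in at least 1 sample, with Benjamini-Hochberg adjustment and a call at an adjusted p under 0.05. Of the 15 probe sets, 13 from 7 genes were tested, and of these 2 were called higher, 0 lower and 11 not called. Over all 6829 probe sets tested, 2.81% were called higher and 3.0% lower. The median difference, SP minus CD8, was -0.07 over the glycolytic probe sets and 0.04 over all tested, with 6 of the 13 above 0 and 7 below.

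Hk1 encodes the hexokinase found in most tissues, which takes the first step by phosphorylating glucose. Its level was 9.59, 10.64 and 10.52 in LSP samples A, B and M and 9.85, 10.39 and 11.56 in USP samples N, O and Z, against 7.91, 7.86 and 7.66 in CD8 samples B, C and D. All 6 SP samples lay above all 3 CD8 samples, and the CD8 samples lay within 1 log2 unit of the floor. The means were 10.43 ± 0.69 in SP cells (SD, n = 6) and 7.81 ± 0.13 in CD8 cells (SD, n = 3), a difference of 2.62 with a standard error of 0.41 (limma adjusted p = 0.0135). On the positive arrays alone, Hk1 was 10.92 to 11.60 on 3 SP arrays, against 7.50 to 7.96 on 6 CD8 arrays, and on the 9 SP arrays with negative values it was 9.22 to 10.56. The call was lost without CD8 sample C (adjusted p = 0.0531) and without CD8 sample D (adjusted p = 0.0577), with differences of 2.64 and 2.54.

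Hk2, the insulin-responsive hexokinase of muscle and fat, sat at the floor on every ten-cell array with both of its probe sets. It could not be tested, and no difference was detectable at this signal.

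Tpi1 encodes triose phosphate isomerase, which interconverts the products of the aldolase reaction. Its level was 10.94, 10.55 and 11.36 in LSP samples A, B and M and 10.90, 11.16 and 12.26 in USP samples N, O and Z, against 8.48, 9.55 and 9.39 in CD8 samples B, C and D. Again the groups did not overlap, with every SP sample at least 1 log2 unit above the highest CD8 sample. The means were 11.20 ± 0.59 in SP cells (SD, n = 6) and 9.14 ± 0.58 in CD8 cells (SD, n = 3), a difference of 2.06 with a standard error of 0.39 (limma adjusted p = 0.0293). The Tpi1 call was the less stable of the pair. Its difference stayed between 1.73 and 2.26 in all 18 alternatives, but the adjusted p was 0.0958 without CD8 sample B, 0.0617 without C, 0.0778 without D, 0.0540 without LSP sample A, 0.0852 with no filter on low levels and 0.0934 on the positive arrays alone (no SP spread in that fit), the other 12 keeping the call.

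**Figure D1:**
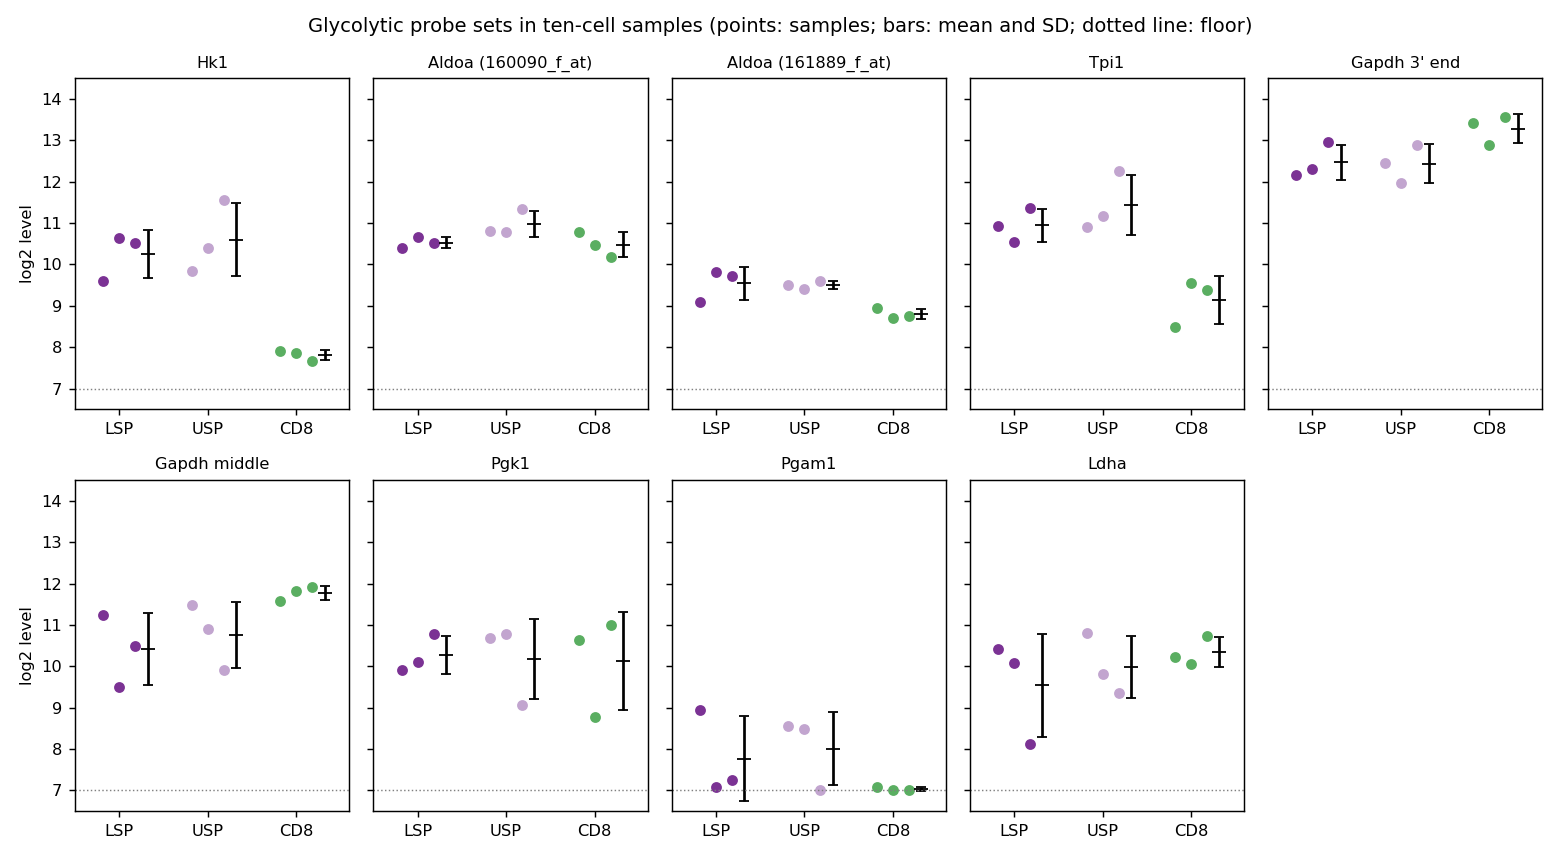
Log2 level (vertical axis) of 9 glycolytic probe sets in the 3 LSP, 3 USP and 3 CD8 samples. Points are samples (means of 2 arrays), bars are the mean and SD of a group, and the dotted line is the floor at 7. Hk1 and Tpi1 in all 6 SP samples lie above all 3 CD8 samples, while Pgk1 and Ldha overlap.

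The aldolase gene Aldoa makes the enzyme that cuts fructose-1,6-bisphosphate. Its 2 probe sets, numbered here in the order of their identifiers, gave unequal results. With probe set 2 the level was 9.08, 9.81 and 9.73 in LSP samples A, B and M and 9.51, 9.42 and 9.60 in USP samples N, O and Z, against 8.94, 8.71 and 8.76 in CD8 samples B, C and D. All SP samples were above all CD8 samples, and the difference of 0.72 (SE 0.18) missed the threshold (limma adjusted p = 0.0679). It passed without LSP sample A (0.84, adjusted p = 0.00708) and had a difference of 0.79 on the positive arrays alone, where no SP spread enters the test. With probe set 1 the groups overlapped, at 10.40 to 11.35 in SP cells and 10.19 to 10.78 in CD8 cells, with a difference of 0.27 (95% interval -0.17 to 0.71, limma adjusted p = 0.521). Both Aldoa probe sets carry the array's mark for probes that can match several genes of a family, so either can also take signal from aldolase relatives.

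Gapdh encodes the dehydrogenase that oxidises glyceraldehyde-3-phosphate. According to the methods, successful amplifications were picked out by a blot probed for this gene, so Gapdh itself took part in choosing the material measured. The 3′ probe set read 12.16, 12.30 and 12.96 in LSP samples A, B and M and 12.46, 11.96 and 12.90 in USP samples N, O and Z, against 13.41, 12.89 and 13.56 in CD8 samples B, C and D. The groups overlapped only through CD8 sample C. The difference of -0.83 (SE 0.28) was not called (limma adjusted p = 0.170).

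The middle of Gapdh differed in the same direction without overlap. It read 11.24, 9.50 and 10.49 in LSP samples A, B and M and 11.47, 10.89 and 9.91 in USP samples N, O and Z, against 11.59, 11.82 and 11.90 in CD8 samples B, C and D. The difference was -1.19 (SE 0.46, limma adjusted p = 0.220), and its opposite-strand probe set gave -1.60 (SE 0.60, adjusted p = 0.206). On the positive arrays alone the differences were -2.10 and -2.76, with 1 LSP and 1 USP sample and so no test of the spread between SP samples. The 3′ end in the opposite orientation, by contrast, had a difference of -0.07 (SE 0.24), whose sign turned under quantile normalization (0.015), and the 5′ probe sets lay at the floor in 3 of 6 SP samples and in 0 of 3 CD8 samples, with differences of -0.32 (SE 0.60) and -0.69 (SE 0.87).

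Counted together, 3 of the 13 tested probe sets (Hk1, Tpi1 and Aldoa probe set 2) had all 6 SP samples above all 3 CD8 samples, which held for 5.52% of all probe sets tested. The reverse held for 2 of 13, both in the middle of Gapdh, against 5.8% of all tested. Since Gapdh supplied 6 of the 13 probe sets, these counts are not of independent genes. An unadjusted p under 0.05 was reached by 6 of the 13, against 18.5% of all tested.

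The last steps of the pathway showed no called difference. Pgk1, phosphoglycerate kinase and the first ATP-making step, read 9.90, 10.10 and 10.79 in LSP samples A, B and M and 10.68, 10.78 and 9.07 in USP samples N, O and Z, against 10.63, 8.77 and 10.99 in CD8 samples B, C and D. CD8 sample C and USP sample Z were the low ones, and the groups overlapped over nearly their whole range. The difference was 0.09 (95% interval -1.36 to 1.53, limma adjusted p = 0.953), and the sign turned when the arrays were scaled to a common median (-0.078).

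Pgam1, phosphoglycerate mutase, was near the floor. It read 8.94, 7.08 and 7.26 in LSP samples A, B and M and 8.55, 8.48 and 7.0 in USP samples N, O and Z, against 7.08, 7.0 and 7.0 in CD8 samples B, C and D. It stood clearly above the floor only in LSP sample A and USP samples N and O, and the difference of 0.86 (SE 0.52) was not called (limma adjusted p = 0.482). Those 3 samples were measured on arrays with negative values. On the positive arrays alone Pgam1 was 7.0 to 7.15 in SP and 7.0 to 7.16 in CD8 cells, with a difference of 0.050.

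Ldha, the muscle-type lactate dehydrogenase subunit, read 10.42, 10.08 and 8.12 in LSP samples A, B and M and 10.80, 9.80 and 9.35 in USP samples N, O and Z, against 10.23, 10.04 and 10.74 in CD8 samples B, C and D. LSP sample M was lowest and the CD8 samples fell inside the SP range. The means were 9.76 ± 0.95 in SP cells (SD, n = 6) and 10.34 ± 0.36 in CD8 cells (SD, n = 3), and the difference of -0.58 had a 95% interval of -1.93 to 0.77 (limma adjusted p = 0.675).

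**Figure D2:**
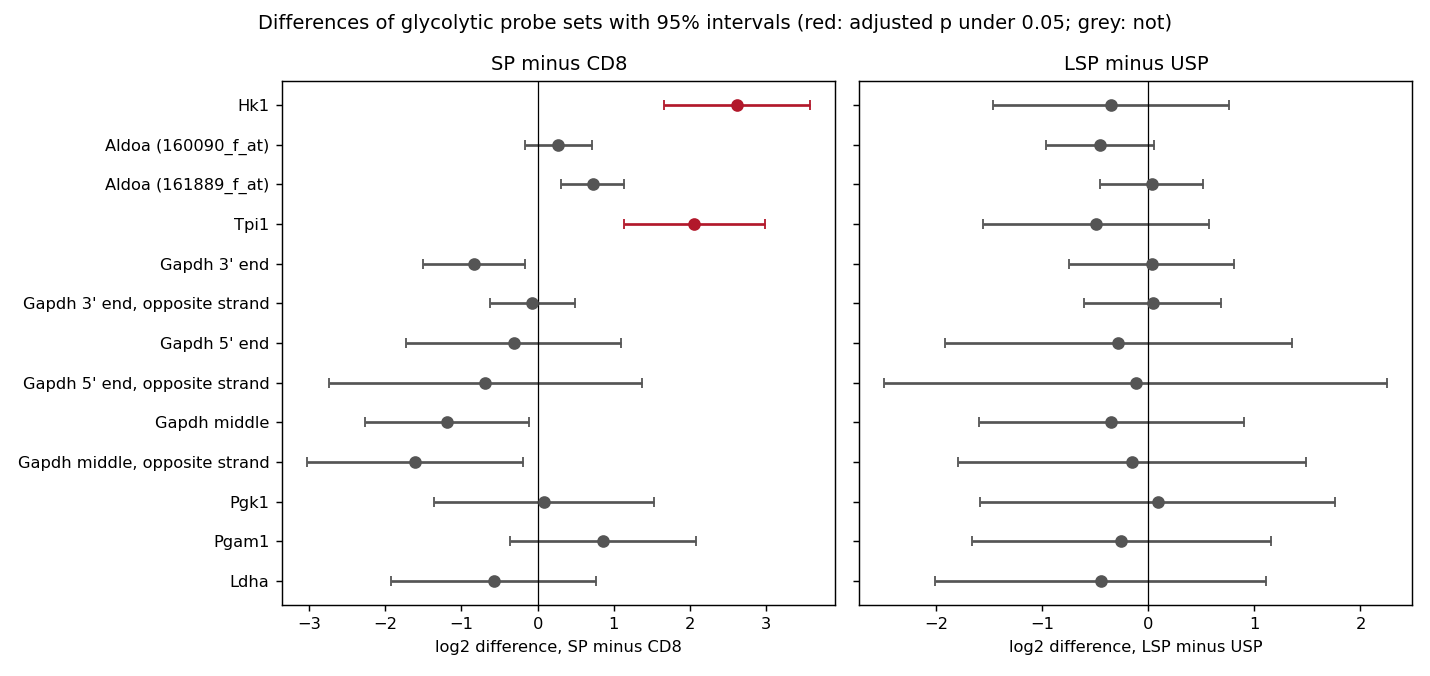
Log2 difference (horizontal axis) of the 13 tested glycolytic probe sets, SP minus CD8 on the left and LSP minus USP on the right. Points are limma estimates with 95% intervals, red where the adjusted p is under 0.05. Hk1 at 2.62 and Tpi1 at 2.06 are the only red points, and every LSP minus USP interval includes 0.

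Between the lower and upper SP cells no glycolytic difference was called. The contrast LSP minus USP came from the same fit of 9 samples. None of the 13 tested glycolytic probe sets was called higher or lower, and none had an unadjusted p under 0.05, against 5.99% of all tested. Over all 6829 probe sets, 0.0293% were called higher in LSP and 0.0732% lower, 0.103% in either direction. The differences ran from -0.49 for Tpi1 (SE 0.45) to 0.09 for Pgk1 (SE 0.70), with 4 above and 9 below 0 and a median of -0.25, against 0 over all tested. On the positive arrays alone, 7 of these signs turned. Hk1 had a mean of 10.25 ± 0.58 in LSP and 10.60 ± 0.88 in USP cells (SD, n = 3 each). Only Aldoa probe set 1 had groups that did not overlap, at 10.40, 10.66 and 10.53 in LSP samples A, B and M, against 10.82, 10.78 and 11.35 in USP samples N, O and Z. That pattern held for 2.88% of all tested and its reverse for 3.09%, shown by 0 of the 13. The difference of -0.45 (SE 0.21) for Aldoa was not called (limma adjusted p = 0.870). For Ldha the 95% interval, -2.0 to 1.11, leaves room for sizeable differences.

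Enzymes next to these in the pathway, taken from lists of related genes, gave no call between SP and CD8 cells or between LSP and USP cells. Of the other glycolytic isoforms, 11 probe sets from 9 genes were tested, with 0 called and a median SP minus CD8 difference of 0.57. The 4 probe sets for glucose and lactate transport, 6 for regulators of glycolysis, 7 for pyruvate dehydrogenase, 7 for the pentose phosphate pathway, 4 for gluconeogenesis, 6 for hypoxia-induced genes and 16 for the TCA cycle also had 0 calls in both contrasts. Over all probe sets tested, 5.81% were called between SP and CD8 cells and 0.103% between LSP and USP cells. With shares this low, 0 calls in such short lists says little about these genes.

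Pkm, pyruvate kinase, which makes pyruvate and ATP in the closing step, had 2 probe sets that both read higher on average in SP samples without a call: the first was 8.09 to 9.32 in SP and 7.52 to 7.96 in CD8 samples, with a difference of 0.87 (SE 0.26, limma adjusted p = 0.118), and the second had a difference of 0.66 (SE 0.56, adjusted p = 0.610). Phosphofructokinase commits sugar to glycolysis. Its platelet-type gene Pfkp, with the second of 2 probe sets, read 9.15 to 11.86 in LSP and 7.0 to 9.42 in USP samples, against 10.45 to 11.62 in CD8 samples. The LSP minus USP difference of 2.82 (SE 0.90) was not called (limma adjusted p = 0.666), and the first gave 0.94 (SE 1.73). The liver-type Pfkl was near the floor, with an SP minus CD8 difference of 0.57 (SE 0.75, adjusted p = 0.736). Ldhb, the heart-type lactate dehydrogenase subunit, ranged from 7.38 to 10.43 in SP samples and from 7.0 to 10.27 in CD8 samples, and its difference of 0.71 (SE 0.79) was not called (limma adjusted p = 0.714). Slc2a1, the widespread glucose transporter GLUT1, stayed at or just above the floor in all samples, at 7.0 to 7.31 in SP and 7.0 in CD8 cells.

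In single SP cells some enzymes were detected in every cell, some in part of the cells and some in none. Of the 15 probe sets, 12 from 6 genes were detected in at least 1 cell, against 4221 of all 12428 probe sets analysed. The 12 include all Gapdh probe sets. In all 12 cells 4 of the 12 (Hk1 and 3 of Gapdh) were detected, against 4.43% of the 4221. Amplifications were chosen by a blot for Gapdh, so its detection in every cell was largely fixed in advance. Those 3 probe sets are of that 1 gene, which leaves Hk1 alone, so the 4 of 12 cannot be read against 4.43%. For the same reason the 12 of 15 cannot be read against 4221 of 12428. The 2 Hk2 probe sets and Pgam1 were detected in no cell and on no SCE array, with highest single-cell levels of 6.79, 8.92 and 7.99. Between 1198 and 1493 probe sets were detected per single cell and between 1355 and 1567 per SCE.

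Apart from the 3′ end of Gapdh, Hk1 had the lowest SD in single cells. Its level had a lowest value of 10.32, a median of 11.09 and a highest value of 12.65 in 12 single cells, against 10.28, 10.82, 9.87, 10.85 and 10.65 in SCE A to E. No cell fell under the detection level. The SD was 0.64 in single cells and 0.42 in SCE, and the mean absolute deviation from the group's median was 0.46 in single cells and 0.30 in SCE, a gap of 0.16 that did not pass (exact permutation test, 1-sided, p = 0.354, adjusted p = 0.752).

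Ldha, by contrast, was split among single cells and steady among SCE. It was 6.67 to 8.04 in cells B, E, I and L, which counts as not detected, and 10.34 to 12.40 in the other 8 cells, with no cell between 8.04 and 10.34. The count depends on the cut-off: 10 cells would be detected at a level of 8, and 8 cells at a level of 10. The 5 SCE read 11.37, 11.69, 11.68, 11.23 and 11.18, all within the range of the 8 cells that had it. The SD was 1.97 in single cells and 0.24 in SCE, and the mean absolute deviation was 1.57 in single cells and 0.19 in SCE. That gap of 1.38 had the smallest p of the 12 glycolytic probe sets (exact permutation test over the 6188 ways of choosing 5 of 17 arrays, 1-sided, p = 0.00469) but did not pass after adjustment over 4221 probe sets (adjusted p = 0.347, and 0.324 to 0.569 over the alternatives). No probe set of any gene passed after adjustment in that test, while an unadjusted p under 0.05 was reached by 9.24% of all and by 1 of the 12 glycolytic ones. The groups were not centred before permuting, so a difference in mean level also enters the p-values of this test. The smallest p that this exact permutation test can give is 0.000162. Over 4221 probe sets, 1 probe set alone could not pass after adjustment even at that p, so not passing says little about the spread.

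A share of the variance can be set beside the spread. Under a model with a technical variance common to both kinds of array and a further variance between cells alone, the estimated biological proportion of Ldha was 0.991, and it lay between 0.985 and 0.993 in every alternative run. How many of all probe sets had a proportion this high was not counted, and the paper describes a peak of genes at high proportions. Of the 12 glycolytic probe sets, 5 reached a proportion of 0.5, against 41.6% of all probe sets: Ldha, both of Aldoa (0.645 and 0.638), Pgk1 (0.547) and the middle of Gapdh (0.729). These are estimates without a test, and most shift with the model. Hk1 was 0.292, and ranged from 0, with quantile normalization or without SCE B, D or E, to 0.843 without SCE C. Pgk1 ranged from 0.315 without SCE C to 0.812 without SCE E, and was under 0.5 without SCE A, B, C or D. Aldoa fell to 0.325 for probe set 1 with quantile normalization and to 0.390 for probe set 2 with a floor of 7. The middle of Gapdh dropped to 0 without cell G, a setting added after the data had been seen.

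**Figure D3:**
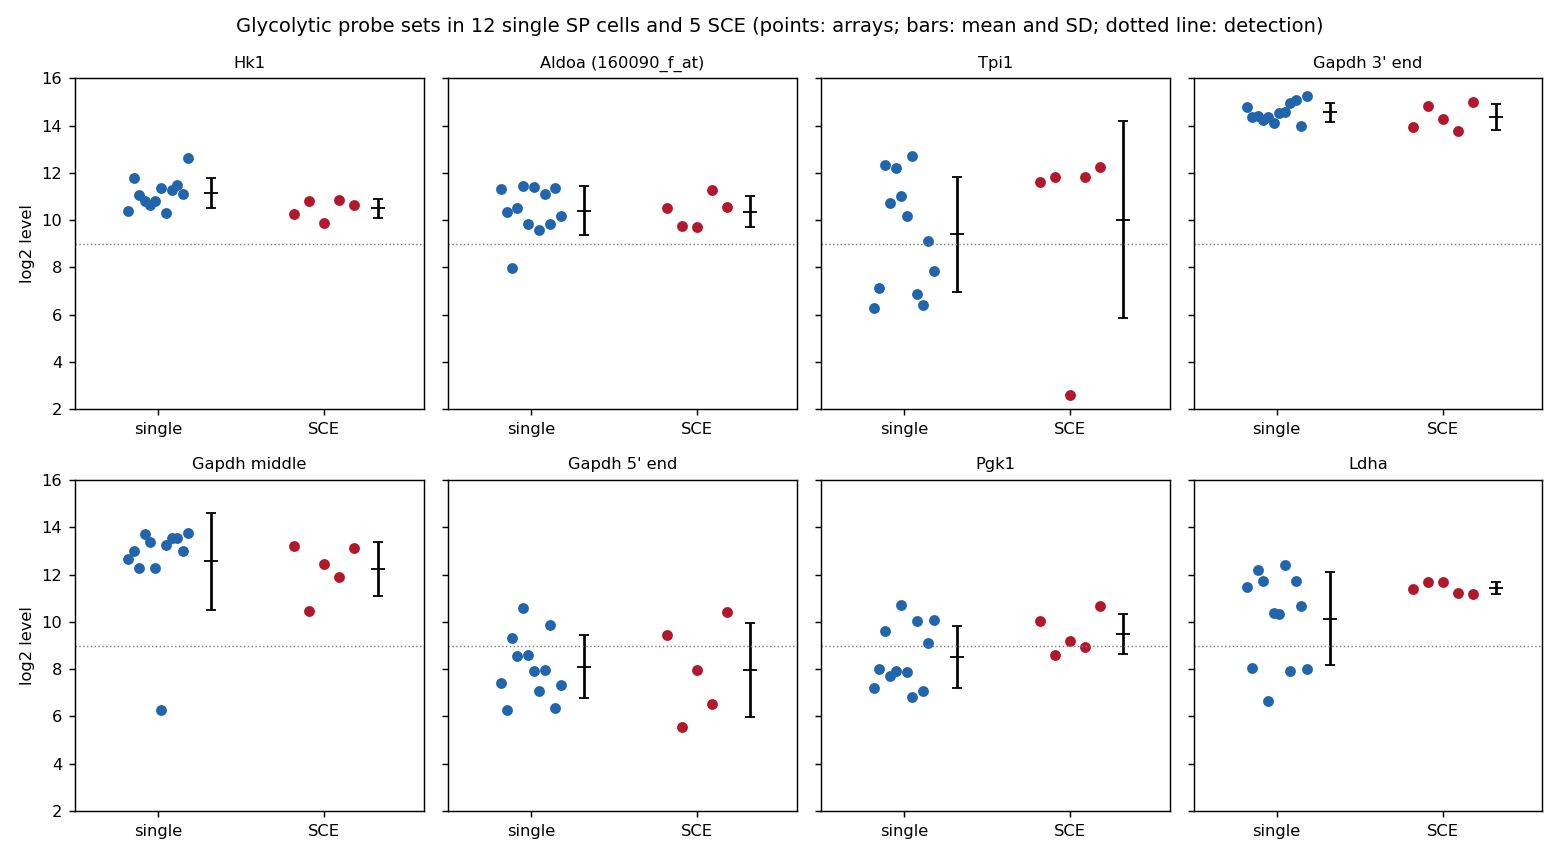
Log2 level (vertical axis) of 8 glycolytic probe sets in 12 single SP cells and 5 SCE. Points are arrays, bars the mean and SD, and the dotted line the detection level of 9. Ldha splits into 4 cells at 6.67 to 8.04 and 8 cells at 10.34 to 12.40, while its SCE lie at 11.18 to 11.69.

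Tpi1 was also split among cells, but 1 SCE behaved like the low cells. It was 6.29 to 7.86 in cells A, B, I, J and L and 9.13 to 12.73 in the other 7, against 11.62, 11.82, 2.59, 11.82 and 12.24 in SCE A to E. SCE C fell under every single cell, although the aliquots came from the same lysate. With it, the SD was 2.43 in single cells and 4.16 in SCE and the biological proportion was 0. Without it, the SCE had a mean of 11.88 ± 0.26 (SD, n = 4), the proportion was 0.996, and the gap in mean absolute deviation was 1.97 in place of 0.15 (exact permutation test, 1-sided, adjusted p = 0.341 without SCE C and 0.820 with it). The Tpi1 spread thus depended on that 1 array, and it passed the test neither with it nor without it. As for Ldha, 1 probe set alone could not pass this test after adjustment.

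The 2 enzymes did not split the cells alike. Both were detected in cells C, D, F, G, H and K, Ldha alone in A and J, Tpi1 alone in E, and neither in B, I and L. Across the 12 cells Pearson's r of their levels was 0.21. Over the 15 pairs among Hk1, Aldoa probe set 1, Tpi1, the 3′ end of Gapdh, Pgk1 and Ldha, r ran from -0.57 (Tpi1 and Gapdh) to 0.49 (Hk1 and Gapdh) with a median of -0.17, against a median of -0.0043 over all pairs of probe sets detected in at least 6 cells. These r values describe 12 cells that each share 1 amplification and 1 array across all genes, and no test was made of them.

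**Figure D4:**
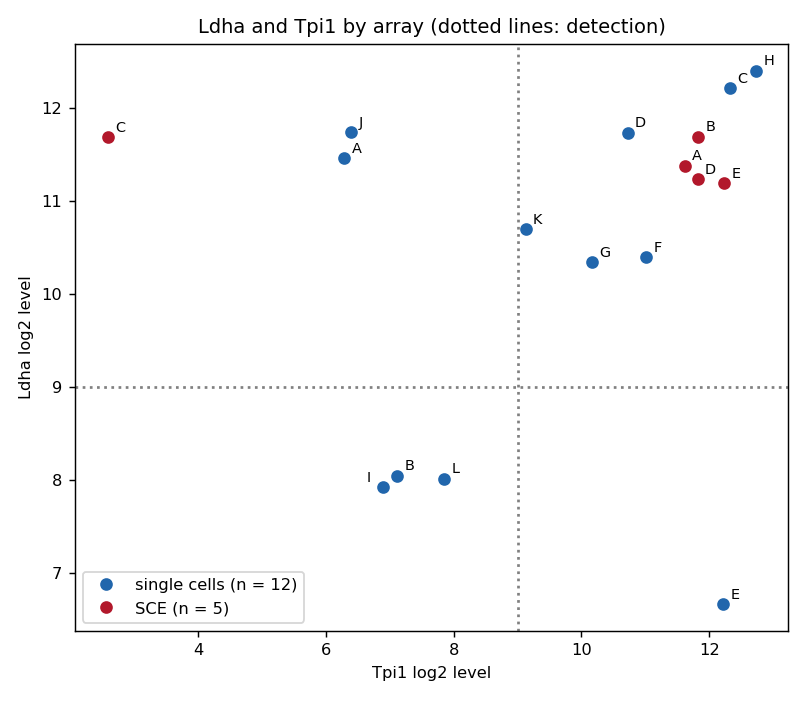
Log2 level of Tpi1 (horizontal axis) and Ldha (vertical axis) on each single-cell (blue, n = 12) and SCE (red, n = 5) array, with the letter of the array; dotted lines mark detection at 9. Of the SCE, 4 cluster at 11.62 to 12.24 for Tpi1 and SCE C stands at 2.59.

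Aldoa and Pgk1 lay between these patterns. Aldoa with probe set 1 was under the detection level only in cell C, at 7.97, and was 9.56 to 11.47 in the other 11 cells, against 9.70 to 11.27 in SCE. The SDs were 1.03 in single cells and 0.65 in SCE, and the deviations did not pass (exact permutation test of the deviations, 1-sided, p = 0.233). Pgk1 was detected in 5 of 12 cells (C, F, I, K and L) at 9.09 to 10.70 and read 6.83 to 8.02 in the other 7, against 10.03, 8.61, 9.20, 8.94 and 10.67 in SCE A to E. With 2 of 5 SCE also under 9, low Pgk1 readings occurred in both groups (exact permutation test of the deviations, 1-sided, p = 0.160).

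No difference in mean level between single cells and SCE was called at any of the 12 glycolytic probe sets tested, with differences of -1.30 for Ldha (SE 0.89, limma adjusted p = 0.865) to 0.85 for Aldoa probe set 2 (SE 0.61, adjusted p = 0.865). Tpi1 had -0.61 with all SCE and -2.47 without SCE C (adjusted p = 0.883). Over all 4665 probe sets tested in that contrast, 0.0% were called higher and 0.0429% lower in single cells. An unadjusted p under 0.05 was reached by 0 of the 12, against 5.68% of all. Of the 7 glycolytic probe sets detected on all 5 SCE, 3 were missing from at least 1 single cell, against 61.8% of all such probe sets, and 1, Ldha, was missing from at least 4, against 27.9%. Most of the 7 are probe sets of Gapdh, whose detection was largely fixed in advance by the blot. These counts therefore cannot be read against those shares.

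Gapdh was the only enzyme here with probe sets named for their place along the transcript. The amplification copies mainly the 3′ end of each message. In single cells the 3′ probe set had a lowest level of 14.00, a median of 14.48 and a highest of 15.25, against 13.79 to 15.02 in SCE (SD 0.39 in single cells and 0.54 in SCE). The middle probe set was 12.26 to 13.76 in 11 cells but 6.27 in cell G, whose 3′ reading of 14.55 was ordinary, and 10.44 to 13.22 in SCE. Its opposite-strand partner was also lowest in cell G, at 9.22. The 5′ probe set was detected in 3 of 12 cells and on 2 of 5 SCE. Levels of different probe sets cannot be compared directly, but their difference can be compared between arrays: the 3′ end minus the middle was 0.50 to 8.28 in single cells (median 1.46), against 0.73 to 4.40 in SCE (median 1.88), and on ten-cell arrays it was 0.88 to 3.05 in LSP (median 2.47) and 0.79 to 3.23 in USP (median 1.19), against 1.00 to 1.94 in CD8 (median 1.65). The 3 SP samples with a low middle reading, LSP B, LSP M and USP Z, had a gap of 2.40 to 3.23 on both arrays, above all 6 CD8 arrays, while LSP A, USP N and USP O had 1.21 or less. The part of this position effect in the readings of the other enzymes was not tested.

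**Figure D5:**
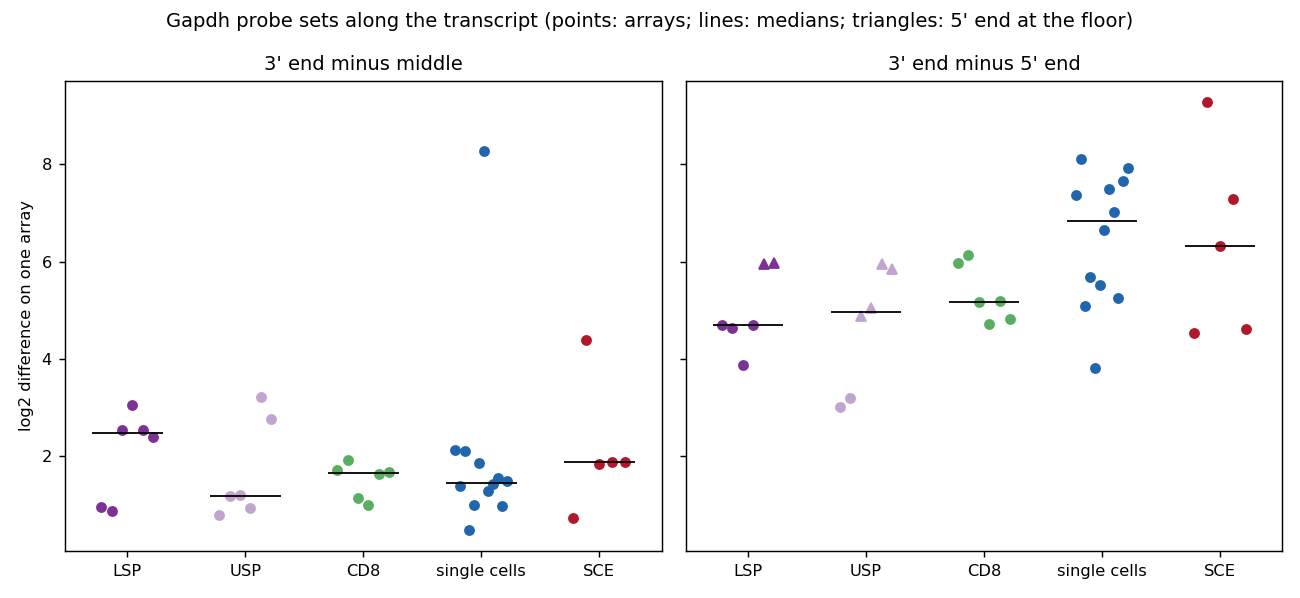
Difference on one array between the 3′ and middle Gapdh probe sets (left) and the 3′ and 5′ probe sets (right), in log2 units (vertical axis), by group. Points are arrays, lines are medians, and triangles mark 5′ levels at the floor; cell G stands at 8.28 on the left, above the next array at 4.40.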

How the data were processed

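RNA of 10 cells or of 1 cell was amplified by a reverse transcription PCR that copies mainly 3′ ends and was hybridised to Affymetrix MG-U74Av2 arrays. The deposited values were linear intensity per probe set, scaled by the authors to a like mean on each array. The methods name MAS5 and RMA, but the deposited values are not logged, and which software gave them, and why 9 arrays hold negative values, is not given in the sources used here. Of 12488 probe sets, 60 array controls other than Gapdh were left out. Gene names came from the platform's annotation: 10839 probe sets had 1 gene, 396 several and 1193 none. The number of arrays limits the precision.

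Intensities were converted to log2, floored at 7 on ten-cell arrays, and the 2 arrays of a sample averaged. SP against CD8, LSP against USP and single cells against SCE were tested with limma 3.58.1 (lmFit, eBayes; R 4.3.3) and Benjamini-Hochberg adjustment over all probe sets tested. Spread was compared by an exact 1-sided permutation test over arrays. The groups were not centred before permuting, so a difference in mean level also enters its p-values. The biological proportion was fitted by maximum likelihood (Python 3.11.15, numpy 2.4.6, scipy 1.17.1, pandas 2.3.3). Both procedures were tested on simulated data. All probe sets of the enzymes are named, and of the other lists those called, at most 6 per list, plus Pkm, Pfkl, Pfkp, Ldhb and Slc2a1. The enzymes and lists were chosen with earlier results of these data known. Promoter sequences came from RefSeq, GRCm38.p6.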

Additional observations from a re-analysis of the deposited data

Results flagged for a closer look

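Tpi1 in SCE C stood apart from the other SCE. Its log2 level was 2.585, and the next lowest SCE was at 11.621, a gap that made up 0.936 of the range of the 5 arrays. Of 25 groups of values examined in this way, 1 was picked out, and chance picks out about 1 in 20 groups.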

How the results depend on the processing

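The 2 calls between SP and CD8 cells became 1 with no filter on low levels and 4 on the positive arrays alone (2 of them lower, with no spread between SP samples in the fit), and 0 to 2 when 1 sample was left out (1 without CD8 sample B, 0 without C and 0 without D). No glycolytic call arose between LSP and USP, or between single cells and SCE, under any alternative run. The count with a biological proportion of 0.5 or more was 3 to 5 when 1 array was left out (3 without SCE A) and 4 to 7 otherwise.

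Over all probe sets, the SP against CD8 calls were 192 higher and 205 lower, against 277 and 362 with the array number as a replicate block, 284 and 377 with a mixed model over arrays, 95 and 119 with no filter, 1190 and 418 on the positive arrays alone, and 95 to 102 higher and 155 to 173 lower without 1 CD8 sample. The calls of LSP against USP, 2 higher and 5 lower, became 11 and 16 with the block, 14 and 17 with the mixed model and 690 and 505 on the positive arrays alone, where each arm is 1 sample and the error comes from the CD8 samples, so that these counts hold no spread within LSP or USP. The glycolytic calls with the replicate block were 2 and 0. Arrays of the same number in different groups did not deviate together (median r -0.000289, against 0.00288 for different numbers), so the numbers did not pair the samples. The cause of these shifts was not tested.

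Signs turned only for differences that were not called. For SP minus CD8 these were Pgk1 (-0.078 with a common median, -0.73 on the positive arrays), Gapdh 3′ end, opposite strand (0.018 on the positive arrays, 0.015 with quantile normalization) and Gapdh 5′ end (0.034 with a floor of 8). For LSP minus USP on the positive arrays they were Pgam1 (0.15), Aldoa probe set 2 (-0.014), Ldha (0.81) and Gapdh 3′ end (-0.42 and -0.64) and 5′ end (0.77 and 1.78). Quantile normalization turned Aldoa probe set 2 (-0.047) and Pgk1 (-0.11), and a floor of 6 turned Gapdh 5′ end, opposite strand (0.18). For single cells minus SCE, a common median, which moved the median of all probe sets to -0.50 from -0.09, turned Aldoa probe set 1 (-0.34) and Gapdh 3′ end (-0.20), 5′ end (-0.26 and -0.26) and middle (-0.055), and a floor of 7 turned the Gapdh 5′ end (-0.14 and -0.48). With variances in place of deviations the spread turned for Tpi1 (-11.4) and Gapdh middle, opposite strand (0.59).

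Leaving out 1 sample turned further signs, with these ranges. SP minus CD8 gave -0.59 to 0.52 for Pgk1 and -0.19 to 0.10 for Gapdh 3′ end, opposite strand. LSP minus USP gave -0.84 to 0.090 for Pgam1, -0.10 to 0.26 for Aldoa probe set 2, -0.46 to 0.39 for Pgk1, -0.89 to 0.26 for Ldha and -0.72 to 0.13 for Hk1. For Gapdh it gave -0.21 to 0.27 and -0.15 to 0.26 at the 3′ end, -0.77 to 0.11 and -0.85 to 0.37 in the middle, and -0.67 to 0.50 and -0.69 to 1.03 at the 5′ end. Single cells minus SCE gave -0.12 to 0.27 for Aldoa probe set 1, -0.11 to 0.58 for Gapdh middle, and -0.47 to 0.74 and -0.72 to 0.98 at its 5′ end. The spread gave -0.34 to 1.97 for Tpi1, and -0.38 to 0.47 and -0.37 to 0.31 for Gapdh middle.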
